A study of Mus musculus with 768 samples.

Results

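Sox2, Id1, Id2, Id3, Id4, Pax3 and Snai2 are listed here as transcriptional inhibitors of myelination, a role that was not measured in these data. These 7 genes were followed in single Schwann cells of the mouse sciatic nerve at postnatal day 5 (P5). They were found by Ensembl identifier, with symbols and coordinates from GENCODE vM21 (GRCm38), among 25700 counted genes. At this age, nerves hold Schwann cells that still divide, immature cells, and cells before and during myelination, and the question was how the inhibitors are distributed over these states. All animals carried a Cre transgene (-/+), ReYFP Tg/+ and βAct-DsRed Tg/+ on a C57bl/6J background. Cre switched on the yellow reporter by which the cells were sorted, so only cells that had recombined the reporter were read, and every cell carried the same alleles. Animals of both sexes were mixed, and each of the 2 plates of 384 wells is 1 biological replicate according to the labels.

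Of 768 wells, 655 outside the plate corners had 1500 or more detected genes and are the cells used here, 325 on plate 1 and 330 on plate 2. Cells with 5 or more reads in at least 3 of 10 mitosis genes were called cycling (57 cells). The other cells were called immature below 10 CPM of Ncmap, a myelin protein gene (228 cells). With more Ncmap they were called intermediate below 30000 CPM of Pmp22, a compact myelin gene (149 cells), and myelinating above it (221 cells). CPM are reads per 1000000 reads of a cell or of a sum, without the further scaling of sums (TMM) that the fits use. The state genes are not among the inhibitors and are not reported as results. Reads were summed per plate and state into 8 sums of 13925435 to 98479212 reads, so a state has n = 2 sums. Of 655 cells, 640 had 5 reads of at least 3 of 6 general Schwann cell genes. The same held for 0 cells with the lists for immune cells, pericytes and muscle, for 2 with that of neurons, 4 with that of perineurial cells, and 469 with that of fibroblasts, whose collagens Schwann cells also express. Median reads per cell were highest in myelinating cells in both plates (819462 and 719230) and lowest in immature cells (476354 and 418998). The RNA content of a cell was not measured, and in a sum fewer cells with a transcript cannot be told apart from less of it per cell, so shares of cells are given beside the levels.

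Sox2 encodes an HMG box factor of neural crest and immature Schwann cells that opposes the myelin programme of Egr2. Id1 to Id4 encode helix-loop-helix proteins without a DNA-binding part. They bind E proteins and keep these, and the factors that pair with them, from E-box sites, and BMP signals are known to induce them. Pax3 encodes a paired box factor of the neural crest, and Snai2 a zinc finger repressor that acts on E-box sites, among others those of the E-cadherin gene Cdh1.

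RefSeq promoter windows were at hand for 4 of the 7 genes, Sox2, Id2, Id3 and Id4. They were searched on both strands for the E-box, CANNTG, through which the partners of Id proteins act, and for GGCGCC, a palindrome known from BMP-responsive DNA of Id genes. The windows are the 250 bases before the start that RefSeq gives. For Id2 and Id3 this start lies inside the gene as GENCODE annotates it, with 161 bases of the Id2 window and all 250 of the Id3 window in annotated exons, while those of Sox2 and Id4 held no exon bases. The Id2 window held 1 E-box and 1 GGCGCC, without overlap. The other 3 windows held no E-box, and 1 GGCGCC was found in that of Id4. Of 32851 promoter windows of this length, 66.2% held CANNTG and 9.59% GGCGCC. The E-box of Id2 is shown because Id2 is the inhibitor whose decline held under every alternative tried. The stretch of the window that lies outside annotated exons, but within the annotated gene (GRCm38.p6, chr12:25096254-25096342, minus strand, 89 bases) reads, with the E-box in capitals:

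Id2: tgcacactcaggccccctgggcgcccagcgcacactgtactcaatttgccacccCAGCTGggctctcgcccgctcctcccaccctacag

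Such a match is a description of the sequence, and no binding was measured.

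Id2 was by far the most abundant of the 7 genes and the only one found in most cells. It was read 5 or more times in 539 of 655 cells (82.3%), against 112 for Id4 (17.1%), 92 for Id3, 87 for Sox2 (13.3%), 41 for Id1 and 4 for Snai2. Pax3 had no read in any of the 768 wells. Per kilobase of annotated exons, the level of Id2 in immature cells was 524 CPM per kb ± 41.7 (SD, n = 2 plates). Id3 followed at 66.6 ± 5.65, Sox2 at 10.6 ± 0.501, Id4 at 6.63 ± 2.93 and Id1 at 4.45 ± 0.975 CPM per kb. The last 3 lie close together, and the spread of Id4 covers the value of Id1. In myelinating cells the order was Id2 (101 ± 26.2), Id3 (23.8 ± 3.96), Id1 (13.5 ± 1.501), Id4 (3.11 ± 1.73) and Sox2 (1.90 ± 1.16 CPM per kb), with the spreads of Id4 and Sox2 overlapping. Of the reads of the Id genes, Id2 held 74.3% to 97.5% in the 8 sums.

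**Figure D1:**
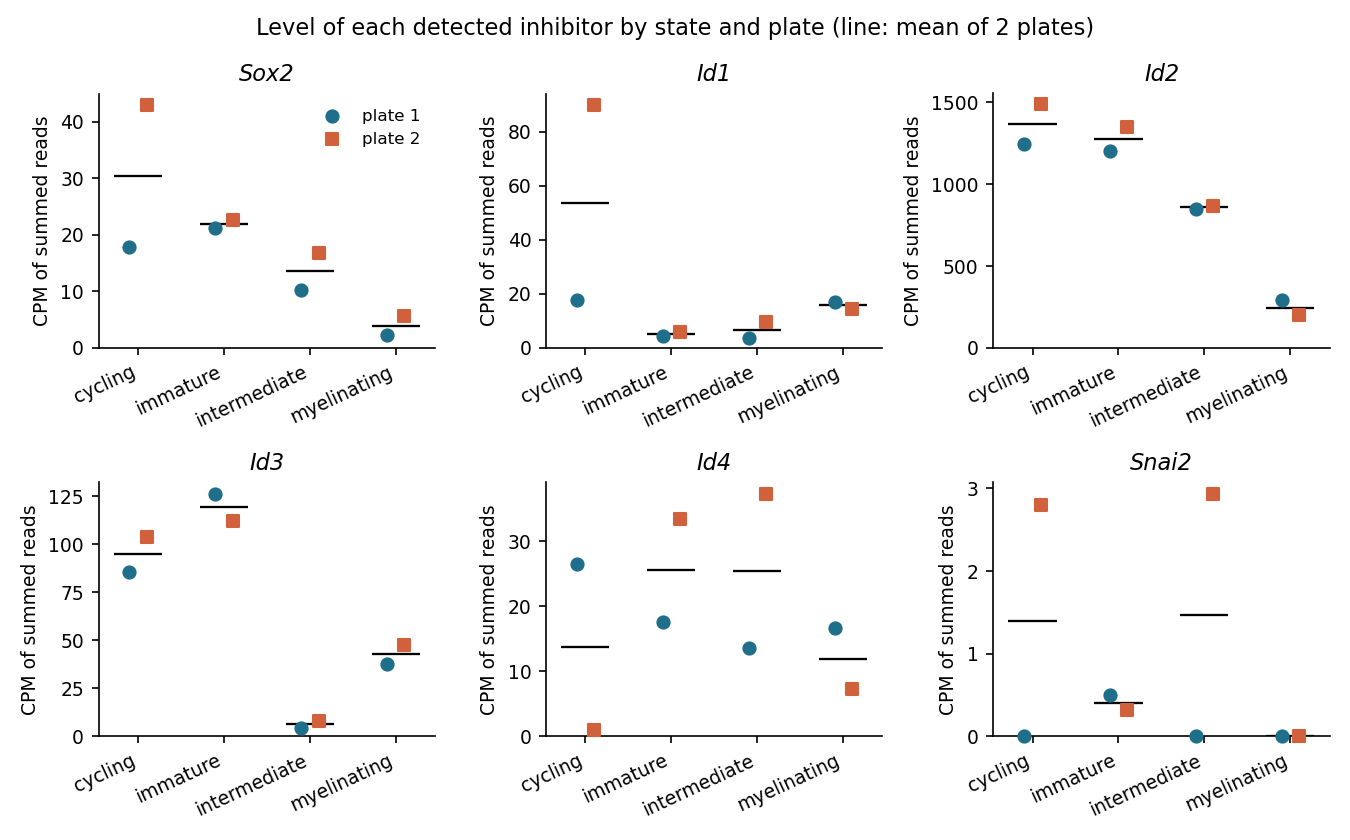
Level of each detected inhibitor (CPM of summed reads, linear axes from 0 that differ between panels) in cycling, immature, intermediate and myelinating cells. Each point is the sum of 1 plate and the line is the mean of 2 plates. Id2 stepped down towards myelinating cells, Id3 was lowest in intermediate cells, and each nonzero Snai2 value rests on 1 cell.

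The first comparison asked which inhibitors differ between myelinating and immature cells. Of the 6 genes that could be tested, 1 passed the threshold of an adjusted p under 0.05 (edgeR, quasi-likelihood test over all genes), where 5.10% of 13892 genes did. This was Id2 (ENSMUSG00000020644, chromosome 12, 25093799 to 25097140). It stood at 1205 and 1349 CPM in immature cells of plates 1 and 2 and at 291 and 201 CPM in myelinating cells. Both myelinating sums lay below every other sum. Within a plate the level in CPM was 4.14 and 6.72 times lower, while the fit, with TMM scaling, gave 3.98 times. The fitted log2 change was -1.99 (SE 0.201, adjusted p 0.000612), and it passed under each of the 19 alternatives, from -2.38 to -1.74 (adjusted p 5.53e-20 to 0.00322).

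Id2 was lower in myelinating than in intermediate cells, while its step from immature to intermediate cells did not pass the test. Intermediate cells held 848 and 869 CPM, below the immature and above the myelinating sums of both plates. From immature to intermediate cells the log2 change was -0.43 (SE 0.194, adjusted p 0.464). From intermediate to myelinating cells it was -1.56 (SE 0.198, adjusted p 0.00899), and it passed under all 19 alternatives (adjusted p 8.86e-12 to 0.0264). The difference between the steps, tested as the deviation of intermediate cells from the midpoint of the other states, did not pass (0.56, adjusted p 0.376). Cycling cells held 1243 and 1489 CPM and overlapped the immature sums (log2 change 0.20, SE 0.194, adjusted p 0.666). These comparisons share sums and are not independent of each other.

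In single cells the fall of Id2 was seen both in how many cells held it and in how much. The median over cells was 1031 CPM in cycling (lowest 0, highest 4605), 1019 in immature (0 to 5374), 619 in intermediate (0 to 5744) and 101 CPM in myelinating cells (0 to 2451). No Id2 read was found in 12 of 228 immature and in 52 of 221 myelinating cells. With every cell thinned to 100000 reads, a read of Id2 remained in 92.5% ± 3.37 (SD, n = 2 plates) of immature, 93.0% ± 3.8 of intermediate and 66.1% ± 6.70 of myelinating cells. Unthinned, with 5 or more reads, the shares were 90.2%, 90.9% and 64.2%. Among myelinating cells with Id2, the median was 240 and 222 CPM in the 2 plates, against 1136 CPM in immature cells with Id2 of either plate.

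**Figure D2:**
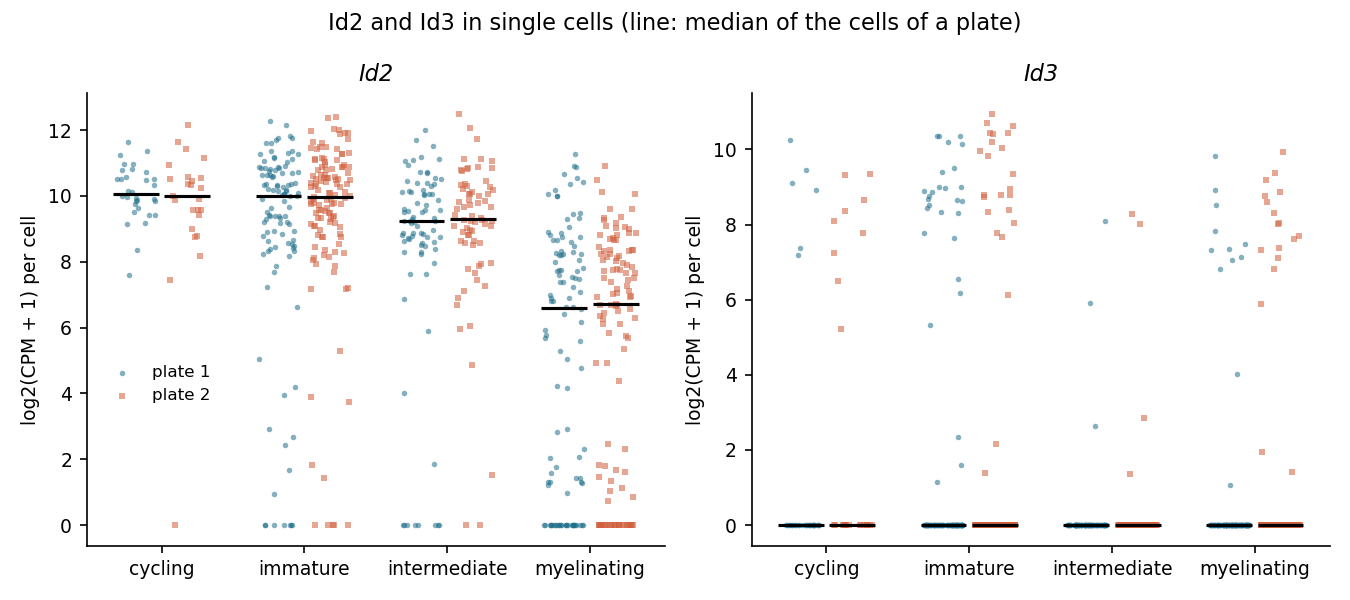
Id2 and Id3 in the 655 single cells, as log2(CPM + 1), by state. Each point is a cell, colours mark the plates, and lines are the medians of the cells of a plate. The bulk of myelinating cells lies lower for Id2, while Id3 is at 0 in most cells of every state and above 0 in few intermediate cells.

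When the intermediate and the myelinating cells of each plate were ranked by Pmp22 and split at the middle, Id2 stepped down at every step in both plates. In plate 1 it went from 1205 CPM in immature cells to 952, 761, 465 and 135 CPM. In plate 2 the levels were 1349, 1057, 679, 274 and 132 CPM. At the last step the plates were nearly equal, while Pmp22 reached 85116 and 81437 CPM. This ordering is a description, since Pmp22 also set the border between the states.

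Id3 (ENSMUSG00000007872, chromosome 4, 136143497 to 136145755) showed another course, with its lowest level in intermediate cells. It was at 126 and 112 CPM in immature cells, 4.59 and 8.02 in intermediate and 37.7 and 47.7 CPM in myelinating cells. The 3 states did not overlap, and every intermediate sum was below every other sum. Cycling cells held 85.5 and 104 CPM, just below the immature sums. Intermediate cells with 5 or more Id3 reads were 1 of 79 in plate 1 and 2 of 70 in plate 2.

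Of the 6 genes tested between intermediate and immature cells, Id3 alone passed, where 1.97% of 13892 genes did. It was 27.6 and 13.97 times lower within the plates, and the fitted log2 change was -4.11 (SE 0.396, adjusted p 0.00123). Between myelinating and intermediate cells Id3 and Id2 passed, 2 of 6, where 0.770% of genes did. There Id3 rose, with a log2 change of 3.01 ± 0.377 (SE) and an adjusted p of 0.00877. Against the midpoint of immature and myelinating cells, intermediate cells were lower in Id3 by -3.56 (SE 0.367, adjusted p 0.00951). Id3 was the only one of the 6 genes to pass there, where 0.130% of genes did. Id2 deviated in the other direction, and of the alternatives it passed with DESeq2 alone (adjusted p 0.0466, otherwise up to 0.879). Between myelinating and immature cells the fit gave -1.10 for Id3 (SE 0.352, adjusted p 0.144), which did not pass. It passed there with total reads as the only scaling (adjusted p 0.0416) and in cells thinned to 100000 reads, over the alternatives from 0.0416 to 0.756.

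The Id3 calls rested on few cells. In plate 1, 99.1% of the Id3 reads of intermediate cells and 51.0% of those of myelinating cells came from 1 cell, and in plate 2 the shares were 62.0% and 24.7%. In immature cells 1 cell held 26.7% and 21.7% of the Id3 reads of plates 1 and 2. With the cell highest in Id3 left out of each sum, a choice made after these shares were seen, the dip did not pass the threshold. It was deeper, which follows from the unequal shares. The log2 changes were then -5.76 (SE 1.36, adjusted p 0.0903) for intermediate against immature and 4.39 (SE 1.28, adjusted p 0.254) for myelinating against intermediate cells. A Pmp22 border of 20000 CPM between the states also ended both calls, and a border of 40000 CPM the second. Over all alternatives the adjusted p went from 1.22e-21 to 0.0903 and from 1.60e-11 to 0.254.

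Shares of cells, which do not weigh reads, were also lowest in intermediate cells. Thinned to 100000 reads, an Id3 read remained in 28.4% ± 12.8 (SD, n = 2 plates) of cycling, 21.4% ± 6.12 of immature, 2.84% ± 0.0854 of intermediate and 12.7% ± 3.3 of myelinating cells. In plate 1 the exact 95% intervals for 5 or more reads were 15.9 to 32.8% in immature and 0.032 to 6.85% in intermediate cells. In plate 2 they were 11.7 to 26.0% and 0.348 to 9.94%. In myelinating cells they were 5.20 to 17.5% and 8.32 to 21.97%. The intervals cover counting error over the cells of 1 plate, which are not replicates of a state, and reads carry no molecular identifiers. Between plates, each state has 2 shares.

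**Figure D3:**
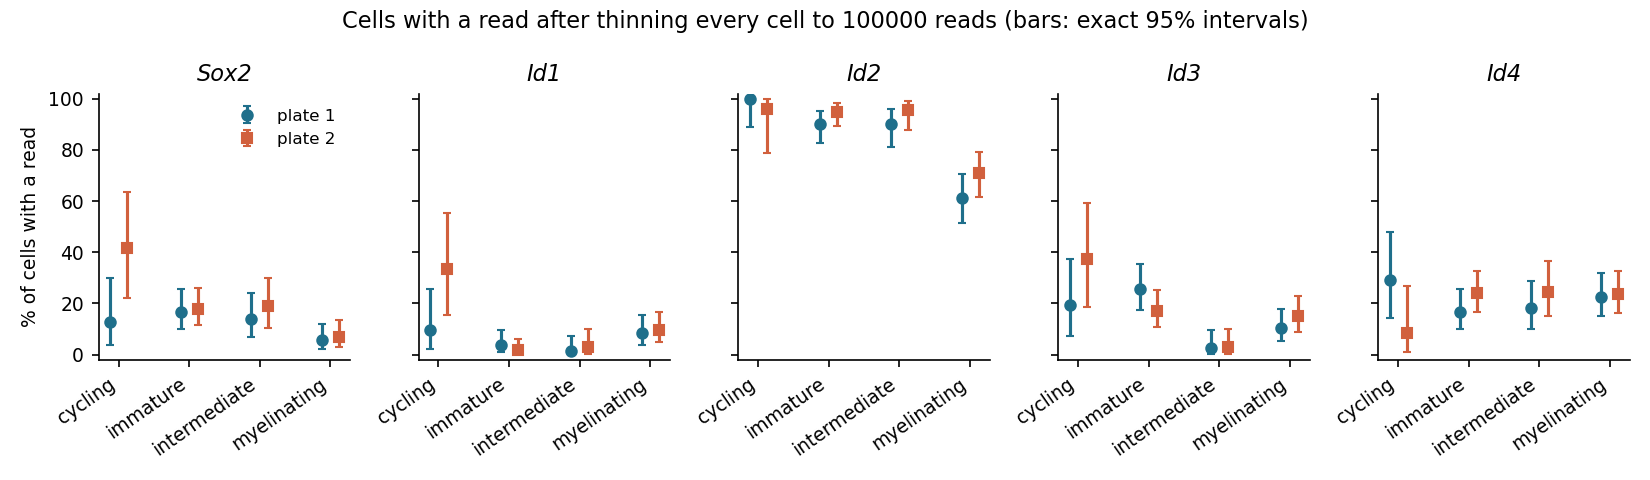
Percent of cells with a read of each gene after every cell was thinned to 100000 reads, by state. Points are plates and bars are exact 95% binomial intervals. Id2 is lower in myelinating cells, Id3 is near 3% in intermediate cells, and Id4 lies near 20% in most states.

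Along the Pmp22 ranking of intermediate and myelinating cells, Id3 was low until the last step, after 126 and 112 CPM in immature cells. The levels in plate 1 were 0.047 CPM in intermediate cells with lower Pmp22, 8.43 with higher Pmp22, 0.687 in myelinating cells with lower Pmp22 and 70.9 CPM in those with higher Pmp22. In plate 2 they were 6.08, 9.98, 18.9 and 74.8 CPM. Of the myelinating cells with higher Pmp22, 10 of 54 and 12 of 57 had 5 or more Id3 reads, against 1 of 54 and 4 of 56 with lower Pmp22. Median reads per cell were 790268 and 719230 in the former and 848811 and 719946 in the latter. The difference within myelinating cells was noticed in these data and was not tested.

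**Figure D4:**
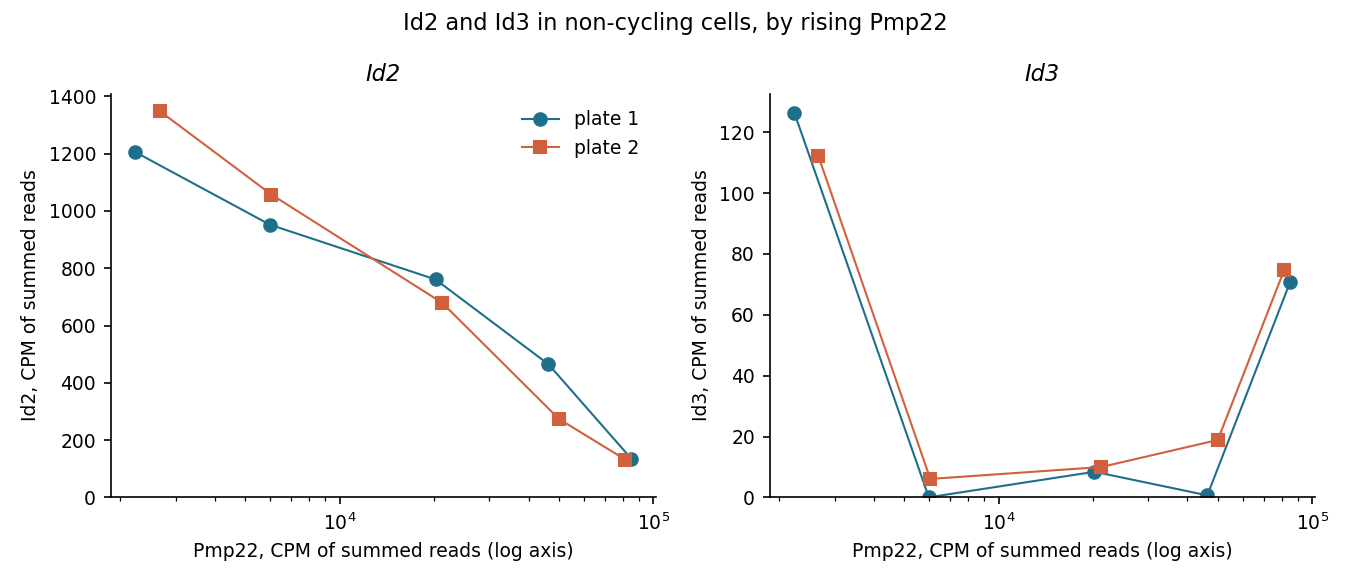
Id2 and Id3 (CPM of summed reads) in non-cycling cells of each plate against Pmp22 (CPM, log axis). Points from left to right are immature cells, the lower and higher part of intermediate cells by Pmp22, and the lower and higher part of myelinating cells. Id2 goes from 1205 and 1349 CPM to 135 and 132 CPM, and Id3 returns to 70.9 and 74.8 CPM at the highest Pmp22.

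Some genes of the immediate-early response, which dissociation of tissue can also switch on, were lower in intermediate than in immature cells, as Id3 was. Of 12 such genes tested, 3 fell, 9 did not pass and none rose, where 1.97% of all genes passed, with a median log2 change of -1.0 against -0.03 over all genes. They were Ier2 (log2 change -2.84), Fos (-0.90) and Dusp1 (-1.50), the last 2 named after their values were seen. The summed level of the list was 9260 to 9276 CPM in immature, 3998 to 4551 in intermediate and 4216 to 4532 CPM in myelinating cells. Fos alone gave 3173 and 3772 CPM of the intermediate sums. From intermediate to myelinating cells the median log2 change of the list was 0.36, against 0.002 over all genes, and none of its genes passed. Against the midpoint the median was -0.74, against 0.02 over all genes, and none passed there either. The part of this list in the Id3 result was not tested. Id1 and Id3 are also strong in endothelial cells. Of the 7 genes listed for them, Pecam1, Cdh5, Flt1, Tek and Emcn had no read, no cell had 5 reads of 3 of these genes, and the summed level was 27.9 to 36.5 CPM in immature, 40.3 to 53.3 in intermediate and 95.8 to 123 CPM in myelinating cells. The other 2 genes were highest in myelinating cells, where Id1 and Id3 lay above their intermediate levels. Kdr, the main VEGF receptor, had no read in cycling or immature cells and stood at 16.5 and 17.9 CPM in myelinating cells, higher than in immature cells (edgeR, adjusted p 0.0328). Egfl7, a secreted protein gene, was at 27.9 and 36.5 CPM in immature and 107 and 77.95 CPM in myelinating cells (adjusted p 0.347). Of 221 myelinating cells, 22 had 5 or more Kdr reads, and 6 of these were among the 27 with Id3 and 5 among the 20 with Id1. For Egfl7, read in 111 of these cells, the overlaps were 18 and 16. The part of these genes in the result was not tested.

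Sox2 (ENSMUSG00000074637, chromosome 3, 34650405 to 34652461) was lower in myelinating than in immature cells of both plates, without passing the threshold. It was at 21.2 and 22.6 CPM in immature, 10.2 and 16.9 in intermediate and 2.22 and 5.59 CPM in myelinating cells. These groups did not overlap. The log2 change from immature to myelinating cells was -2.10 (SE 0.781, adjusted p 0.216), and none of the 19 alternatives passed (adjusted p 0.0635 to 0.836). Cycling cells held 17.9 and 42.9 CPM, on either side of the immature level (log2 change 0.58, SE 0.753, adjusted p 0.779). Without the cycling sum of plate 2 the change was -0.21.

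Sox2 reads came from few cells in every state. A read remained in 17.4% ± 0.790 of immature, 16.4% ± 3.50 of intermediate and 6.37% ± 1.00 of myelinating cells thinned to 100000 reads (SD, n = 2 plates). The median of cells with Sox2 was 152 and 145 CPM in immature and 35.1 and 87.8 CPM in myelinating cells. Of 87 cells with 5 or more Sox2 reads, 15 of 15 cycling, 30 of 35 immature, 21 of 24 intermediate and 10 of 13 myelinating cells also had 5 or more of Id2. Among all cells of these states, in the same order, 56 of 57, 206 of 228, 135 of 149 and 142 of 221 had 5 or more Id2 reads. The gene lies within Sox2ot on the same strand, and reads of this locus may have been assigned to either gene.

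Id1 (ENSMUSG00000042745, chromosome 2, 152736251 to 152737410) was rare in immature and intermediate cells. Its level was 4.36 and 5.96 CPM in immature, 3.65 and 9.54 in intermediate and 16.9 and 14.5 CPM in myelinating cells. Myelinating sums lay above both of these states, but the log2 change from immature cells, 1.99 (SE 0.854, adjusted p 0.293), did not pass. Cycling cells held 17.8 and 89.8 CPM and lay above the other states in both plates. The log2 change from immature to cycling cells was 3.50 (SE 0.908) with an adjusted p of 0.0956. No inhibitor passed in this comparison, 0 of 6, where 2.52% of genes did. Id1 passed with DESeq2 (adjusted p 0.000595), with no filter on low counts and without the cycling sum of plate 1, over a range from 0.000595 to 0.430.

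The cycling value of Id1 came from 3 of 32 cells in plate 1 and 8 of 25 in plate 2. In plate 1, 73.1% of its reads were in 1 cell. A read remained in 21.5% ± 16.7 of cycling, 2.84% ± 1.59 of immature, 2.14% ± 1.07 of intermediate and 9.11% ± 0.880 of myelinating cells after thinning (SD, n = 2 plates). Id3, too, was found in few intermediate cells, and 14 cells in all held 5 or more reads of both genes. From immature to intermediate cells the log2 change of Id1 was 0.48 (SE 0.827, adjusted p 0.949), and -0.34 without the intermediate sum of plate 2.

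Id4 (ENSMUSG00000021379, chromosome 13, 48261228 to 48266026) passed the threshold in no comparison, and its plates differed widely. It was at 26.6 and 1.00 CPM in cycling, 17.5 and 33.5 in immature, 13.6 and 37.3 in intermediate and 16.7 and 7.27 CPM in myelinating cells. The groups overlapped, except that both immature sums lay just above both myelinating sums. From immature to myelinating cells the log2 change was -0.71 (SE 1.2, adjusted p 0.889), so that changes of a few fold in either direction were not detectable here. Without the cycling sum of plate 1, cycling cells were lower than immature cells by -4.54 (adjusted p 0.03), while without that of plate 2 the change was 0.14. A read of Id4 remained in 20.4% ± 5.02 of immature, 21.4% ± 4.65 of intermediate and 23.3% ± 0.885 of myelinating cells thinned to 100000 reads (SD, n = 2 plates). Id4 overlaps A330033J07Rik and Gm49291 on the other strand, and whether strand was used in counting is not given in the sources used here.

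**Figure D5:**
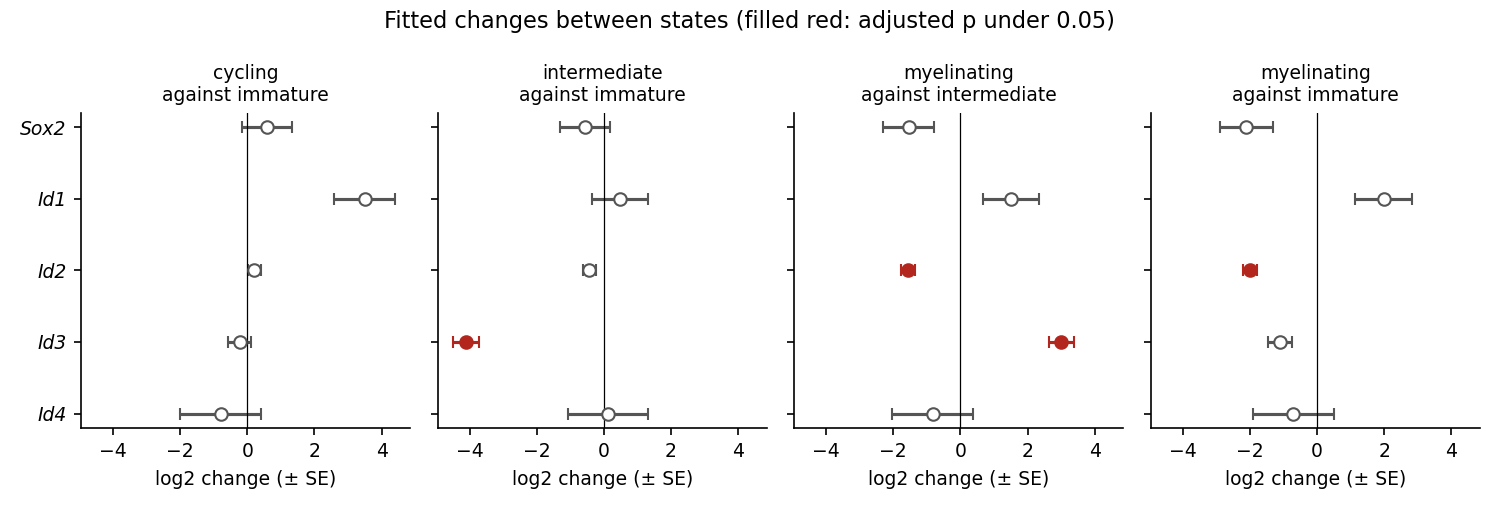
Fitted log2 changes of the 5 genes with reads in every state, with bars of ± SE, in 4 comparisons. Filled red points passed an adjusted p of 0.05 in edgeR. Id2 is filled in both comparisons of myelinating cells, and Id3 is filled on the left in intermediate against immature and on the right in myelinating against intermediate cells.

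Snai2 (ENSMUSG00000022676, chromosome 16, 14705852 to 14709385) was read in 4 of 655 cells. They held 27 and 19 reads in 1 immature cell of each plate, 39 in a cycling cell and 122 in an intermediate cell of plate 2. The 4 cells had 82 to 178 reads of Sox10, a factor of Schwann cells and of melanocytes, and none of the fibroblast genes Dcn and Pdgfra. Of the melanocyte genes, Pmel had 375 reads and Dct 52 in the immature cell of plate 1, and Pmel had 1510 in the intermediate cell. The other 2 cells had no read of Pmel, Dct or Tyrp1. In all, 5 or more Pmel reads were found in 2 of 57 cycling, 9 of 228 immature, 22 of 149 intermediate and 36 of 221 myelinating cells. No comparison of Snai2 passed the threshold, and no fold change is given because each level rests on 1 cell.

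Pax3 (ENSMUSG00000004872, chromosome 1, 78101267 to 78197134) had 0 reads in 655 cells, which allows a share of up to 0.458% of cells with a read (3 counts of the total). Among melanocyte genes, whose lineage uses Pax3 too, Tyr and Mlana had no read either, and 4 cells had 5 reads of 3 genes of that list. That list was highest in intermediate cells, at 104 to 131 CPM against 50.7 to 87.5 in immature cells, through Pmel among others, at up to 77.0 CPM.

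Of 13 listed relatives of the inhibitors (SOX, Snail, Twist and Pax genes and Zeb1), 5 were abundant enough to test, none passed in any comparison, and Sox1, Snai3, Twist1, Twist2 and Pax7 had no read. Among the E proteins and helix-loop-helix factors with which Id proteins interact, 5 of 8 were tested. None of them passed between myelinating and immature cells, with a median log2 change of -0.37 there against -0.04 over all genes. Hes6 of this list was lower in cycling than in immature cells (log2 change -1.92, adjusted p 0.0483). Its levels were 19.1 and 9.84 CPM in cycling and 60.5 and 56.6 CPM in immature cells. Of 25 ligands, receptors and Smads of BMP and TGF-beta signalling, 18 were tested and none passed in any comparison. Over all genes, 0.130% to 5.10% passed, depending on the comparison. The absence of a pass in such short lists lies near these shares and is no result about their genes.

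Some other genes listed as holding back or delaying Schwann cell differentiation, a role not measured here, were lower in myelinating than in immature cells, as Id2 was. Of 11 tested, 5 fell, 6 did not pass and none rose, where 5.10% of all genes passed. The list was chosen with earlier results of these data known, so this count is no independent test. Their median log2 change was -2.43 against -0.04 over all genes. Ednrb, an endothelin receptor, went from 3202 and 2473 CPM to 61.6 and 43.3 CPM (log2 change -5.37, SE 0.361). Egr3, an immediate-early factor, changed by -5.84 (SE 0.594), Jun, which drives the response to injury, by -2.92 (SE 0.426), and Egr1 by -2.43 (SE 0.224). Notch1, named after its values were seen, changed by -1.33 (SE 0.303). Jun, Egr1 and Egr3 belong to the early response as well. Between immature and intermediate cells, where Id2 did not pass, Egr3, Ednrb and Egr1 did, beside 1.97% of all genes.

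Of 9 drivers of myelination tested, Egr2 and its corepressor Nab2 rose and Zeb2 fell between immature and myelinating cells, and 6 did not pass, where 5.10% of all genes passed. The median log2 change of the 9 was -0.26 against -0.04 over all genes. Egr2 was at 103 and 110 CPM in immature and 250 and 161 CPM in myelinating cells (log2 change 1.34, SE 0.275, adjusted p 0.0245). Nab2 went from 35.2 and 42.8 CPM to 80.6 and 90.9 CPM (log2 change 1.52, SE 0.291). Zeb2, a relative of Zeb1 that restrains inhibitory signals in Schwann cells, went from 394 and 324 CPM to 135 and 115 CPM (log2 change -1.14, SE 0.215). Of 6 adhesion genes tested, with a median of -0.75, Cdh1 alone passed. This known target of Snai2 rose by 1.94 (SE 0.383). It was at 6.14 and 3.88 CPM in cycling, 34.3 and 25.9 in immature and 92.1 and 85.1 CPM in myelinating cells.

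Likeness was measured as the Pearson correlation of log2(CPM + 1) over the 325 and 330 cells of the plates, for 8263 genes. Cells of a plate share depth and state, so these values are descriptions. Id2 was most like Ednrb (r 0.464 and 0.451), Ptma (0.491 and 0.399), a chromatin protein gene, and Rps19 (0.394 and 0.438), of the ribosome. Id3 was most like Matn2 (0.275 and 0.265), Scn7a (0.284 and 0.264) and Entpd2 (0.356 and 0.256). For Sox2 the closest genes were Nnat (0.212 and 0.195), Apoe and Ednrb. Those of Id1 (Eri1, Lmnb1 and Peg3), Id4 (Cxcl14, B3gnt5 and Pla2g7) and Snai2 (Sirpa, Gna13 and Mxd1) had r under 0.26, and those of Snai2 rest on 4 cells.

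Within immature cells Id3 lay mostly in cells with Entpd2, a nucleotide hydrolase of non-myelinating glia. Of immature cells with 5 or more Entpd2 reads, 32.4% in plate 1 and 21.98% in plate 2 had 5 or more Id3 reads, against 5.71% and 6.45% of the others. The level of Id3 was 199 and 144 CPM with Entpd2 and 12.9 and 11.1 CPM without. With Matn2, a matrix protein gene, in place of Entpd2 the shares were 34.8% and 23.3% against 2.70% and 3.13%. With Scn7a, a sodium channel gene, they were 35.3% and 27.5% against 18.1% and 11.3%. Id2 had no common direction by Entpd2, at 1156 and 1367 CPM with and 1281 and 1289 CPM without it. It was lower in both plates with Matn2 (1063 and 1196 against 1440 and 1872 CPM) and with Scn7a (1116 and 957 against 1236 and 1637 CPM). Median reads of cells with Entpd2 were lower in plate 1 (430172 against 582032) and higher in plate 2 (448215 against 319200). These genes were chosen from the correlations above, so the splits are no independent test.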

How the data were processed

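Single cells were read with Smart-Seq2. The authors aligned the reads and counted them over genes. Their deposited table gives raw counts, unnormalised, for each well. The submitters' processing notes name bcl2fastq, STAR 2.6.1c, featureCounts and GRCm38.p5, while the study's methods name other versions and a human build. The gene identifiers are of mouse, and 25587 of 25700 matched GENCODE vM21.

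Wells below 1500 genes and corner wells were left out (113 of 768), and no doublet caller was run. Counts were summed per plate and state. The sums were tested with edgeR 4.0.16 (quasi-likelihood, TMM, filterByExpr) in R 4.3.3, with 1 spread for all states (4 residual degrees of freedom) and Benjamini-Hochberg adjustment over 13904 genes. The 12 genes that define states were left out of counts of genes called. P-values measure the spread between 2 plates of pooled animals. On simulated sums for myelinating against immature cells (14327 genes tested), the test recovered 92% of genes changed by 4 on the log2 scale. Of those changed by 2 it recovered 52%, and 6 unchanged genes passed. The changed genes were drawn only from genes above a minimum mean level, which Sox2, Id4 and Snai2 did not reach. These rates therefore do not hold for them. DESeq2 1.42.0, other scalings, filters and state borders, thinned cells, a plate block and sums left out were alternatives.

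The 4 sums of a plate share its pooled animals, so plates pair the states, but deviations correlated weakly (r -0.04 to 0.21 for 6 pairs of states, 1972 genes). Named genes were all members, up to 4 genes per list past the threshold in myelinating against immature cells with a mean of at least 10 CPM, and the 3 genes most like each member. The members and lists were chosen with earlier results of these data known, so counts within the lists are no independent tests. Transcripts of the members share identical runs of at most 29 bases. One part of the genotype is not reported here.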

Additional observations from a re-analysis of the deposited data

Results flagged for a closer look

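Id3 was flagged because its step from immature to intermediate cells differed from its step from intermediate to myelinating cells. Its deviation from the midpoint was -3.56 on the log2 scale (edgeR, adjusted p 0.00951), over the alternatives from -5.11 to -3.09 (adjusted p 4.87e-21 to 0.305). It did not pass without the highest cell of each sum or with Pmp22 borders of 20000 and 40000 CPM.

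Wells that entered no comparison held reads of the inhibitors above the 3 counts that a count of 0 allows. In wells outside the corners that failed the gene minimum, Id2 had 802 reads on plate 1 and 478 on plate 2. Of these wells, 6 of 55 and 2 of 50 had 5 or more Id2 reads, and 75 Id3 reads were found in those of plate 1. Their medians were 1979 and 426 reads per well, with 6758393 and 520647 reads in all. Over all of these reads Id2 was at 119 and 918 CPM.

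In the 4 corner wells of each plate Id2 had 322 and 161 reads, and Id1 had 154 reads on plate 1 and 12 on plate 2. For Id1 this is 1540 and 205 CPM, above the highest sum of any state, 89.8 CPM. All 4 corner wells of plate 1 had 5 or more Id1 reads. The labels do not say how corner wells differ.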

How the results depend on the processing

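Of 475 values of the 5 genes tested with reads in every state, 445 kept their direction and side of the threshold. Id3 passed with a Pmp22 limit of 20000 CPM in none of its comparisons (-5.72 for intermediate against immature, 4.49 for myelinating against intermediate, -5.11 against the midpoint), and with 40000 CPM not in the last 2 of these (2.61 and -3.09). Without its highest cell in each sum it was -5.76, 4.39 and -5.08. Between myelinating and immature cells Id3 passed with total reads only (-1.48) and in thinned cells (-1.47). Id1 passed between cycling and immature cells with DESeq2 (3.58) and with no filter (3.49), and Id2 passed against the midpoint with DESeq2 (0.56). The sign of Id1 between intermediate and immature cells turned in thinned cells (-0.11), with Ncmap at 50 CPM (-0.33), without columns 8 and 16 (-0.12) and without its highest cell (-0.07), and against the midpoint with 20000 CPM (0.05). That of Id4 turned with total reads only (-0.005) and in thinned cells (-0.001). The cause was not tested.

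With 1 sum left out, cycling against immature ranged from -0.21 to 1.09 (Sox2), 1.87 to 4.24 (Id1) and -4.54 to 0.14 (Id4, past the threshold at -4.54 without the cycling sum of plate 1). Intermediate against immature ranged from -0.34 to 1.01 (Id1) and -0.75 to 0.67 (Id4), myelinating against intermediate from -1.56 to 0.05 (Id4), and the midpoint from -1.34 to 0.01 (Id1) and -0.40 to 1.02 (Id4).

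Genes past the threshold numbered 350 in cycling against immature (838 with no filter, 1347 with DESeq2, 115 to 1279 with 1 sum left out) and 274 in intermediate against immature cells (685, 929, 130 to 634, and 469 in thinned cells). They numbered 107 in myelinating against intermediate (428, 640, 78 to 376, and 211 in thinned cells), 709 in myelinating against immature (1188, 1519, 386 to 1299) and 18 against the midpoint (234, 422, 15 to 152, 72 in thinned cells and 28 with Pmp22 at 40000 CPM). With total reads only, 250 genes were higher and 692 lower in myelinating than in immature cells, against 360 and 349, and the median of all genes was -0.42 against -0.04. The plate as a replicate block changed no call of these 5 genes.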

Other observations

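In cycling cells, Id2 was lower where Id3 was present. The 6 cells of plate 1 with 5 or more Id3 reads had a median of 769 CPM of Id2 (194 to 2017), and the other 26 cells had 1216 CPM (566 to 3164). In plate 2, 9 cells with Id3 had a median of 437 CPM (0 to 2284), and 16 without had 1248 CPM (512 to 4605). The groups overlapped in both plates. Immature cells did not show this in both plates, with medians of 1031 CPM with and 957 CPM without Id3 in plate 1, and 810 and 1104 CPM in plate 2. The pattern was noticed in these data and was not tested.

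Most cells held fewer than 3 of the inhibitors. After thinning, 3 or more had a read in 9.68% and 33.3% of cycling and 11.9% and 13.7% of immature cells. In intermediate cells the shares were 4.17% and 7.25%, and in myelinating cells 5.66% and 7.97%. Thinned to 100000 reads, 28.3% and 18.6% of myelinating cells had a read of none of the 7 genes, against 3.96% and 0.855% of immature and 0% of cycling cells. The mean number per cell was highest in cycling cells, 1.71 and 2.21, and lowest in myelinating cells, 1.08 and 1.26, and no cell had more than 4. These counts include Id2, of which a read remained in 92.5% of immature and 66.1% of myelinating cells.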
